A study of Rattus norvegicus with 36 samples.

Results

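The comparison described here is that of the pineal glands of decentralized (DCN) rats with those of sham-operated (Sham) rats at midnight, ZT19, where ZT is the time in hours since lights on. It rests on 6 of the 36 libraries of the study, 3 DCN night and 3 Sham night, which were taken by their labels. The rats of these groups were Sprague-Dawley of both sexes, kept under 14 h of light and 10 h of dark, operated on postnatal day 5 and killed at 40 days of age. In DCN rats the sympathetic trunk in the neck was cut on both sides and a piece of the chain below the superior cervical ganglia (SCG) was taken out, so that the ganglia stayed in place without their central input. In Sham rats the ganglia were exposed in the same way and nothing further was done. Each library was made from pooled glands, and the p-values therefore measure the spread between pools rather than animals. The libraries used beside these 6 were Control (no surgery) and SCGX (both SCG removed) glands at midnight, the 4 groups at mid-day (ZT7), glands in culture, and single pools of pineal gland and of 15 mixed tissues. The cultured glands came from other animals, female rats of 2 to 3 months, and were kept for 48 h before they were left untreated or treated for 6 h with 1 µM norepinephrine (NE) or with 500 µM dibutyryl cyclic AMP (DBcAMP), which enters cells and acts in place of cyclic AMP.

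The pineal gland makes melatonin at night under the control of the clock in the suprachiasmatic nucleus. The signal runs from the clock through the spinal cord to the SCG, whose fibres end in the gland and release norepinephrine in the dark. Norepinephrine acts on adrenergic receptors of the pinealocyte and raises cyclic AMP, which changes the transcription of many genes. Decentralization cuts this path before the ganglion and ganglionectomy removes its last neuron.

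Genes are given by their Ensembl identifiers, since the files do not pair identifiers with names, and marker lists by gene name were not analysed here. In place of names, genes were grouped by what they did in libraries outside the comparison. A Control night gene was higher in Control night than in Control day (adjusted p-value under 0.05) and a Control day gene was lower. These were 2842 (18.2%) and 2665 (17.1%) of 15622 genes. The strong ones among them passed 0.001 with a change over 4-fold, and were 296 night genes (1.89%) and 76 day genes (0.486%). Genes raised or lowered in culture passed 0.001 with a change over 2-fold against untreated glands. NE raised 432 (2.84%) and lowered 119 (0.782%) of 15219 genes, and DBcAMP raised 649 (4.27%) and lowered 211 (1.39%) of 15196. Pineal-enriched genes (418) were over 8-fold higher in a pineal pool than in mixed tissue at day or at night, with no replicates behind that ratio. A gene that is high only at night can enter this group through the night pool alone. Mixed-tissue genes (1930) were over 8-fold higher in mixed tissue than in both pineal pools.

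One Sham library stood apart from the others. Mixed-tissue genes took 1.25% of the read-pairs on genes in Sham night replicate 3, against 0.221% and 0.247% in the other Sham night libraries and between 0.267% and 0.33% in the DCN night libraries. Of the remaining in vivo libraries, DCN day replicate 1 had 0.961%, and the other 22 libraries of the 4 groups lay between 0.185% and 0.397%. Of 937 mixed-tissue genes tested, 762 (81.3%) were higher in Sham night replicate 3 than in each of the other 5 libraries, against 21% of all genes tested. The 937 passed the minimum mean count with this library included, and 724 of them also passed without it. Genes that passed only through this library raise that share, and the share among the 724 was not computed. The common coefficient of variation was 26.1% with all 6 libraries and 16.6% without this one. The main results are therefore given with it and without it. The part of the non-pineal RNA in the results below was not tested beyond that. The 6 libraries held between 14107309 and 18504240 read-pairs on genes. The 163 genes enriched in the pineal gland at both times took between 4.97% and 5.68% of them in Sham night and between 5.52% and 6.74% in DCN night.

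**Figure D1:**
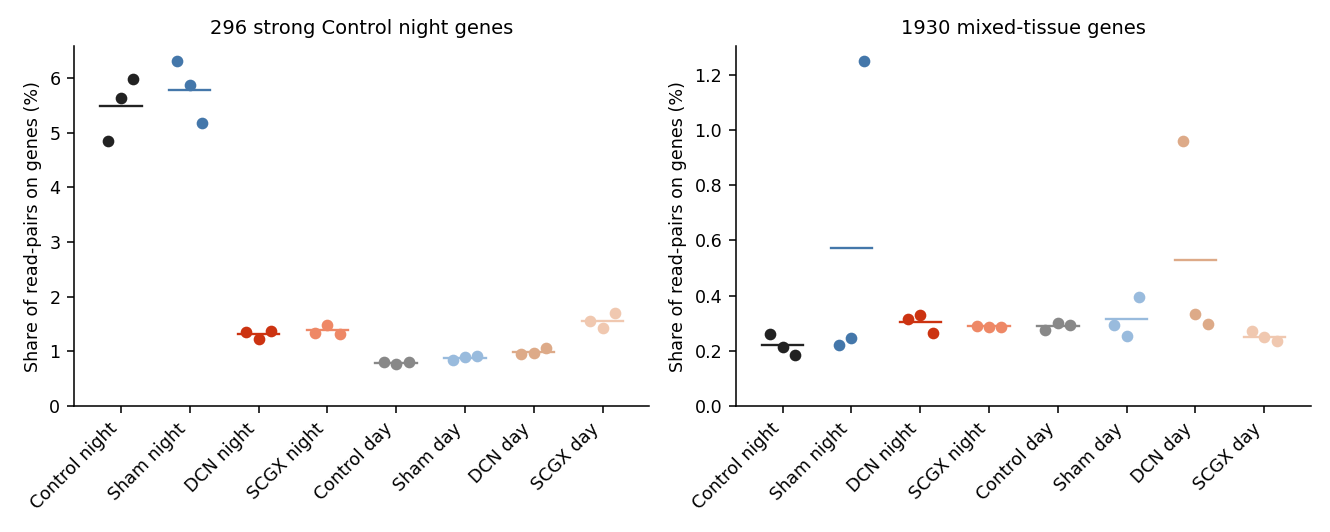
Share of read-pairs on genes, in percent, that fell on the 296 strong Control night genes (left) and on the 1930 mixed-tissue genes (right) in each of the 24 in vivo libraries. Points are libraries and lines are group means (n = 3). DCN night lies near SCGX night and the day groups on the left, and Sham night replicate 3 (1.25%) and DCN day replicate 1 (0.961%) stand above the rest on the right.

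Transcripts that rise at night in intact glands were low at night after decentralization. The 296 strong Control night genes together took 6.31%, 5.88% and 5.17% of the read-pairs in the 3 Sham night libraries and 1.35%, 1.22% and 1.38% in the 3 DCN night libraries, and the groups did not overlap. In Control night they took between 4.85% and 5.97%, in SCGX night between 1.33% and 1.49%, and in Sham day between 0.838% and 0.908%. The 76 strong Control day genes took between 0.0502% and 0.091% of the read-pairs in Sham night and between 0.175% and 0.22% in DCN night. In whole glands, fewer cells of a type and less RNA per cell cannot be told apart.

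In the test across all genes, 136 (0.853%) of 15939 genes differed between DCN night and Sham night by over 2-fold with an adjusted p-value under 0.001 (quasi-likelihood test of edgeR, adjusted after Benjamini and Hochberg), of which 118 (0.74%) fell and 18 (0.113%) rose. Of the 118 genes that fell, 116 (98.3%) were Control night genes and 69 (58.5%) were strong ones, where Control night genes made up 17.8% of the genes tested. Of the 18 genes that rose, 16 were Control day genes, 1 was a Control night gene and 1 was neither. The falls were also the larger changes. Among the genes that fell, 49 fell 2- to 4-fold, 32 fell 4- to 8-fold, 22 fell 8- to 16-fold, 8 fell 16- to 32-fold and 7 fell over 32-fold. Among the genes that rose, 13 rose 2- to 4-fold and 5 rose 4- to 8-fold. The median level of the genes that fell was 75 RPKM in Sham night and 15.7 RPKM in DCN night, and that of the genes that rose was 10.6 and 37.9 RPKM, where RPKM is read-pairs scaled to gene length and library total.

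The number of calls moved with single libraries, while all of the 118 falls and 14 of the 18 rises were also called without Sham night replicate 3. Without that library 191 genes (1.22%) fell and 21 (0.134%) rose, and 187 of the 191 were Control night genes. The total of 136 calls became 66 without Sham night replicate 1, 20 without Sham night replicate 2, 12 without DCN night replicate 1, 29 without DCN night replicate 3 and 0 without DCN night replicate 2. In the last fit 4067 genes had an unadjusted p-value under 0.05, against 5132 with all 6 libraries. DESeq2 called 779 genes, 574 lower and 205 higher, among them all 136.

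ENSRNOG00000011598 had the largest fall. It had 202.6, 126.6 and 148.7 CPM (read-pairs scaled to a common library total) in the 3 Sham night libraries and 0.135, 0.124 and 0.129 CPM in the 3 DCN night libraries, where it rested on 2 read-pairs per library. From the summed counts, 7098 read-pairs in Sham night and 6 in DCN night, Sham night was 1219-fold higher, with a 95% counting interval from 560 to 3322 (exact binomial). The interval covers counting error only. The adjusted p-value of the test was 3.94e-05 with all 6 libraries and 3.15e-05 without Sham night replicate 3. The DCN night level lay below the day level of intact glands as well, since Sham day had 1.22, 0.654 and 0.937 CPM and Control day between 0.4 and 1.09 CPM. Summed over its libraries, Sham day was 7.3-fold above DCN night (counting interval 3.1 to 21). The gene had 99.5, 112.9 and 89.8 CPM in Control night and 0.295, 0.37 and 0.143 CPM in SCGX night. In culture it went from 0.405 ± 0.151 CPM (SD, n = 3) in untreated glands to 42.6 ± 7.77 with NE and 36.4 ± 8.81 with DBcAMP.

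ENSRNOG00000033502, a pineal-enriched gene, had the next largest fall. Its level was 435.7, 335.2 and 343.8 CPM in Sham night and 0.81, 0.684 and 1.48 CPM in DCN night, a log2 fold change of -8.49 (standard error 0.26, adjusted p = 3.94e-05, edgeR), and -8.59 without Sham night replicate 3. The Sham night libraries lay close together and none came near the DCN night range. In RPKM, which allows comparison between genes, its mean in Sham night was 263.9 ± 32.6 (SD, n = 3), above the 74.3 ± 16.6 RPKM of ENSRNOG00000011598. In Control night it varied more, with 160.4, 273.1 and 417.9 CPM, and in SCGX night it had 1.33, 1.11 and 1.21 CPM. The 3 Sham day libraries held between 8.17 and 9.01 CPM and the DCN day libraries between 0.807 and 1.54 CPM, so that the gene was also lower in DCN than in Sham at day (log2 fold change -2.85, adjusted p = 0.00959, edgeR). In Control day it had 0.834, 8.75 and 12.7 CPM, and the first of these libraries fell within the DCN range. NE and DBcAMP raised it in culture from 2.25 ± 0.301 CPM to 35.5 ± 11.7 and 22.6 ± 5.5 CPM (SD, n = 3).

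The largest rise was that of ENSRNOG00000039200, a pineal-enriched gene that was lower at night than at day in Control. It had 6.61, 6.82 and 6.86 CPM in Sham night and 49.3, 42 and 54.8 CPM in DCN night (log2 fold change 2.89, standard error 0.13, adjusted p = 0.000127, edgeR). The DCN night libraries overlapped the day libraries of the same gene, which held between 38.4 and 54 CPM in Sham and between 40.4 and 54.5 CPM in DCN. Control night held between 7.77 and 12.3 CPM and SCGX night between 36.4 and 44.4 CPM. Both treatments lowered it in culture, from 13.7 ± 1.78 CPM to 5.78 ± 0.623 with NE and 5.82 ± 0.0614 with DBcAMP (SD, n = 3).

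ENSRNOG00000016472, the next largest rise, had 3.02, 2.27 and 2.55 CPM in Sham night and 18.4, 17.3 and 13.7 CPM in DCN night (log2 fold change 2.70, standard error 0.20, adjusted p = 0.000509, edgeR). Unlike the previous gene it also lay above the day level of intact glands, which was between 4.82 and 7.18 CPM in Sham day and between 5.13 and 7.84 CPM in Control day. DCN day held between 11.3 and 15.3 CPM and SCGX night between 13.8 and 15.3 CPM. In culture, NE and DBcAMP lowered it from 5.7 ± 0.995 CPM to 1.7 ± 0.112 and 1.39 ± 0.366 CPM (SD, n = 3). Without DCN night replicate 2 none of these 4 genes kept an adjusted p-value under 0.001, with the highest at 0.00614 and the lowest at 0.00125. The log2 fold changes there were -10.11, -8.28, 2.99 and 2.66. ENSRNOG00000016472 also lost the call in each other fit without 1 library, apart from that without Sham night replicate 3, and ENSRNOG00000039200 in those without DCN night replicate 1 or Sham night replicate 2.

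**Figure D2:**
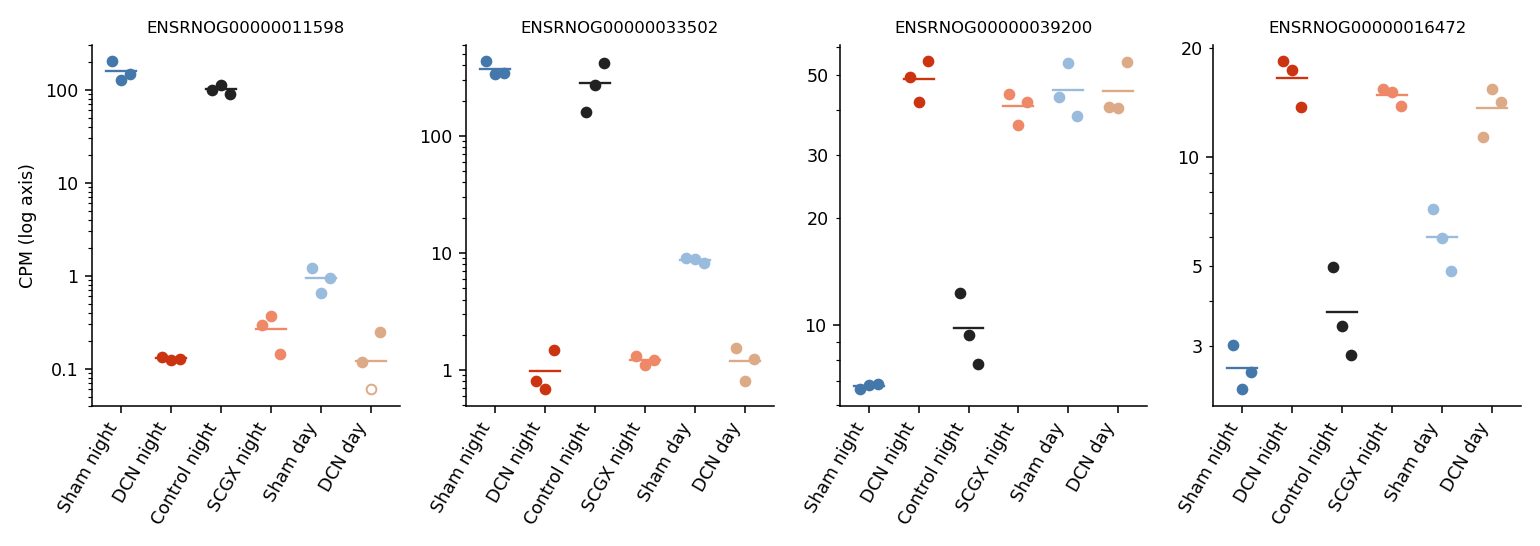
CPM on a log axis of the 2 genes with the largest falls and the 2 with the largest rises, in the night and day groups named under each panel. Points are libraries and lines are group means (n = 3), and the open point at the foot of the first panel is a DCN day library with no read-pair. In each panel DCN night lies near SCGX night and apart from Sham night and Control night.

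The 15 largest falls had log2 fold changes between -10.13 and -4.05, and 14 of them were Control night genes. Their median level was 74.3 RPKM in Sham night and 1.18 RPKM in DCN night. NE raised 14 of the 15 in culture and DBcAMP raised 13, against 2.67% and 3.81% of the genes tested. Of the 15, 7 were pineal-enriched, against 2.58%, a group that night genes can enter through the night pool alone. All 15 were called without Sham night replicate 3. The 10 largest rises lay between 1.85 and 2.89 on the log2 scale, and 9 were Control day genes. NE and DBcAMP each lowered 4 of the 10, against 0.74% and 1.31% of the genes tested, and raised none of them, and 8 of the 10 were called without Sham night replicate 3.

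At the looser threshold of an adjusted p-value under 0.05, 1290 genes (8.09%) were lower and 1431 (8.98%) higher in DCN night. The lower genes were mainly night genes, with 1095 (84.9%) Control night genes and 17 Control day genes. The higher genes were more mixed, with 839 (58.6%) Control day genes, 30 Control night genes and 550 (38.4%) that were neither in Control. Of the higher genes 1063 (74.3%) changed less than 2-fold and of the lower genes 643 (49.8%), against 86.1% of all genes tested. These shares were closer, at 64.8% and 57.9%, without Sham night replicate 3. Without Sham night replicate 3, 1693 genes were lower and 1018 higher. Of the 1290 lower genes 1258 (97.5%) were kept in that fit, and of the 1431 higher genes 835 (58.4%). Fewer calls were made without the others: 1312 without DCN night replicate 1, 1245 without DCN night replicate 2, 1564 without DCN night replicate 3 and 1601 without Sham night replicate 2, against 2721 with all 6 libraries. When libraries were scaled by their totals alone, 2635 of 3764 calls (70%) were higher, against 52.6% with TMM and 41.4% with median-of-ratios factors. This scaling also moved the median log2 fold change of all genes from 0.03 to 0.14, so the number of genes that rose depends on the scaling.

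Control night genes with an increase over 4-fold were lower in DCN night more often than those with a smaller increase. Of 1982 genes with a night increase under 2-fold in Control, 515 (26%) were lower in DCN night at an adjusted p-value under 0.05. This was so for 292 of 485 genes (60.2%) with a 2- to 4-fold increase, 254 of 323 (78.6%) with a 4- to 16-fold increase and 34 of 43 (79.1%) with a larger one. Their median log2 fold changes were -0.22, -1.05, -1.82 and -4.00, against 0.03 over all genes tested. Without Sham night replicate 3 the shares were 38.4%, 64.3%, 82% and 81%. The last 2 shares lay close together in both fits, and which of them was higher differed between fits. Without DCN night replicate 2 they were 11.2%, 42.8%, 58.2% and 69.8%. The first share alone moved by over 1.5 times in other fits without 1 library, to 11.4% without DCN night replicate 1, 15.4% without DCN night replicate 3 and 15% without Sham night replicate 2. In the other direction, 27 genes of the first group and 3 of the next were higher in DCN night, and none of those with an increase over 4-fold. For the day genes of Control the shares showed no order that held across fits. Of those with a day excess under 2-fold 34.1% were higher in DCN night, against 26.2% of those with a 2- to 4-fold and 24.7% of those with a larger excess. Without Sham night replicate 3 the shares were 23.9%, 24.8% and 32%, without DCN night replicate 1 they were 13.4%, 15.9% and 15.6%, without DCN night replicate 2 they were 15.2%, 13.6% and 14.8%, without DCN night replicate 3 they were 17.3%, 16.4% and 20.4%, and without Sham night replicate 2 they were 19.6%, 17.4% and 20.5%. Under scaling by library totals alone they were 50.3%, 32.8% and 27.8%. The median log2 fold changes were 0.37, 0.59 and 0.84 with all 6 libraries. Across 15406 genes the correlation of the DCN/Sham difference at night with the Control night/day difference was -0.54 (Pearson) and -0.45 (Spearman), and -0.67 and -0.60 without Sham night replicate 3. The 2 differences share no library, and genes are not independent replicates.

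**Figure D3:**
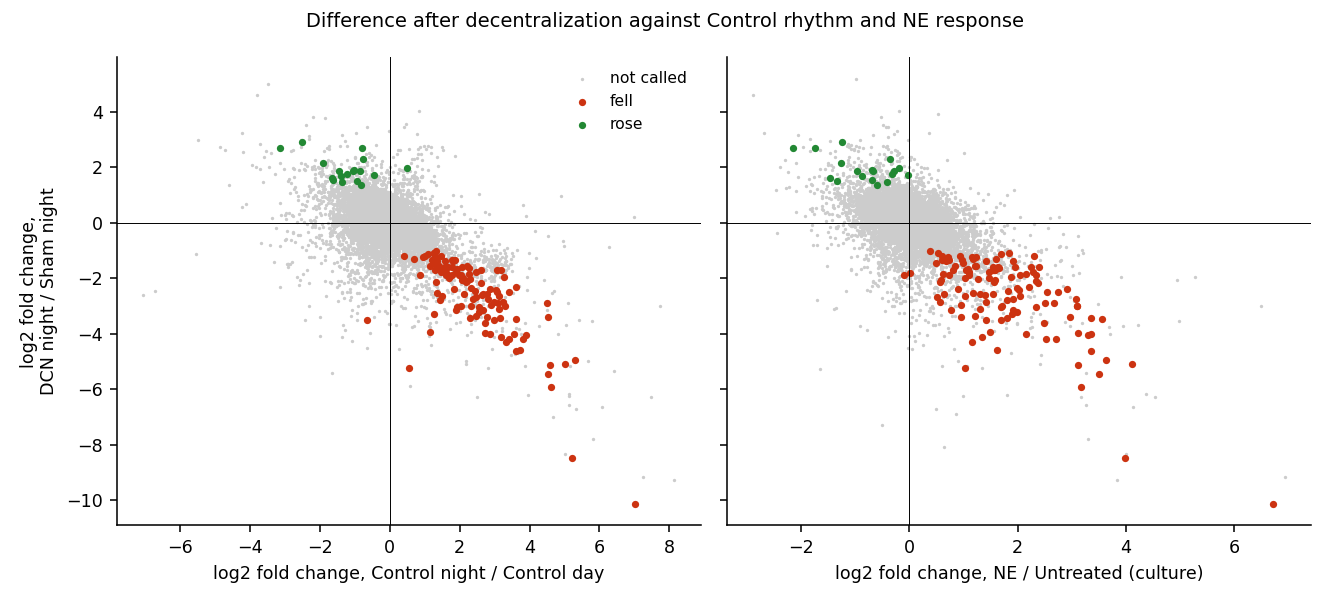
log2 fold change of each tested gene in DCN night against Sham night (vertical) plotted on its log2 fold change in Control night against day (left) and in NE-treated against untreated cultures (right). Red points are the 118 genes that fell and green points the 18 that rose by the strict threshold. Most red points lie at the lower right and most green points at the upper left of both panels, with 117 of the 118 red points right of 0 and all 18 green points left of 0 in the right panel.

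Most of the genes that NE and DBcAMP raise in isolated glands were lower after decentralization. Of the 118 genes that fell, NE raised 91 (77.1%), DBcAMP raised 89 (75.4%) and both raised 84 (71.2%), while genes raised by both made up 2.17% of the genes tested. The NE difference was above 0 for 117 of the 118, against 43.4% of the genes tested, and neither treatment lowered any of them. Of the 18 genes that rose, 6 were lowered by both treatments, against 0.489% of the genes tested. None of the 18 was raised by either, and none had an NE difference above 0. Of the genes tested, 88.1% were raised by neither, while 1223 (7.67%) lacked a test in 1 or both culture comparisons. Those 1223 are in the base of each share of the genes tested given here, while the 118 and the 18 all had both tests. Turned around, 275 of the 346 tested genes that both treatments raise (79.5%) were lower and 6 were higher in DCN night at an adjusted p-value under 0.05, and their median log2 fold change was -1.58. Of the 78 genes that both treatments lower, 46 (59%) were higher and none was lower, with a median of 1.08. These counts were 280 of 343 and 44 of 78 without Sham night replicate 3. Across 14841 genes the correlation of the DCN/Sham difference with the NE difference was -0.58 (Pearson) and -0.51 (Spearman), and -0.60 and -0.47 without Sham night replicate 3. The cultures share no library with the comparison.

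The night genes of Control were then split by their response in culture. Of 286 Control night genes raised by NE and DBcAMP, 261 (91.3%) were lower in DCN night at an adjusted p-value under 0.05 and 84 (29.4%) also met the strict threshold, with a median log2 fold change of -1.68. Of 61 raised by NE and not called for DBcAMP, 54 (88.5%) were lower. Of 115 raised by DBcAMP and not called for NE, 72 (62.6%) were lower. Both counts were higher without Sham night replicate 3, at 55 and 84, and without DCN night replicate 1 or 2 the first of them was 34. Of 2303 raised by neither, 684 (29.7%) were lower and 29 were higher, with a median of -0.26. These last genes also had smaller night increases in Control, with a median log2 fold change of 0.54 against 2.18 for the first group. Among strong Control night genes, where the Control medians were closer (3.02 and 2.69), 151 of 158 raised by both (95.6%) and 56 of 79 raised by neither (70.9%) were lower. Without Sham night replicate 3 these were 153 of 158 and 64 of 79. In the fits without 1 DCN night library (1, 2 or 3) the 56 became 36, 31 and 34, while the share of the 158 stayed at 89.2% or above. Likewise, the 684 night genes raised by neither became between 320 and 423 without 1 DCN night library and 421 without Sham night replicate 2, while at least 79% of the 286 raised by both were lower in each fit without 1 library. Genes raised by both treatments that were neither night nor day genes in Control gave a lower share than the night genes raised by both. Of these 46 genes 11 (23.9%) were lower, with a median of -0.38, against 1.73% of all 9936 genes tested that were neither in Control. The 11 became 12 without Sham night replicate 3, 6 without DCN night replicate 1 or 2 and 7 without Sham night replicate 2. On the side of the day genes, 44 of 61 lowered by both treatments (72.1%) were higher in DCN night, against 732 of 2402 lowered by neither (30.5%). The counts were 41 of 61 and 557 of 2400 without Sham night replicate 3. The 44 became 32, 30 and 33 and the 732 became 314, 328 and 390 without DCN night replicates 1, 2 and 3, and without Sham night replicate 2 they became 42 and 426.

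**Figure D4:**
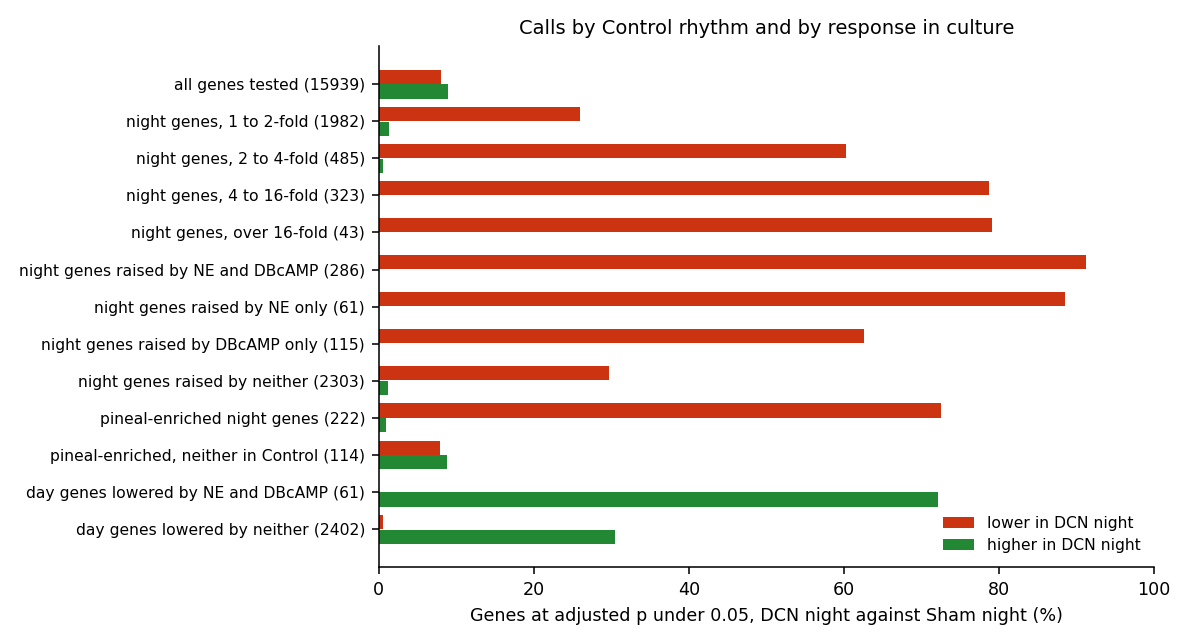
Percent of the tested genes of each group that were lower (red) or higher (green) in DCN night than in Sham night at an adjusted p-value under 0.05, with the number of genes in parentheses. The groups were set in the Control, culture, pineal and mixed-tissue libraries. The bars for lower genes are longest for night genes that NE and DBcAMP raise (91.3%). The bars for pineal-enriched genes that were neither night nor day genes in Control (7.89% and 8.77%) are near those of all genes (8.09% and 8.98%). All tested genes that were neither, which are not drawn, gave 1.73% lower and 5.54% higher.

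Of 412 pineal-enriched genes tested, 173 (42%) were lower and 53 (12.9%) higher in DCN night at an adjusted p-value under 0.05, against 8.09% and 8.98% of all genes, and the median of their log2 fold changes was -0.41. In the fit without Sham night replicate 3 these counts were 184 and 43, and the 53 became 35 without DCN night replicate 1 and 34 without DCN night replicate 2. Among the 118 genes that fell, 35 (29.7%) were pineal-enriched, against 2.58% of the genes tested. Night genes can enter this group through the night pool alone, and 4 of the 118 (3.39%) were enriched at both times, against 1.02%. Of the 162 tested genes enriched at both times, 28 (17.3%) were lower and 29 (17.9%) higher. Without Sham night replicate 3 these counts were 32 and 24. The lower ones among the 412 were mainly night genes. Of 114 pineal-enriched genes that were neither night nor day genes in Control, 9 (7.89%) were lower and 10 (8.77%) higher in DCN night. The shares of all genes, which include the night and day genes, are close to these, and the median log2 fold change of the 114 was 0.16. Without Sham night replicate 3, 12 were lower and 6 higher, with a median of 0.05, and fits without 1 of the other libraries gave between 3 and 8 higher ones and as few as 3 lower ones. None of them met the strict threshold with all 6 libraries. Among all 9936 genes tested that were neither in Control, 1.73% were lower and 5.54% higher. Without Sham night replicate 3 these shares were 3% and 3.39%. Beside them, the pineal-enriched ones were lower more often in these 2 fits (7.89% and 10.5%). Of the pineal-enriched night genes, 161 of 222 (72.5%) were lower, and of the pineal-enriched day genes 41 of 75 (54.7%) were higher. Their medians were -1.46 and 0.88. Leaving out Sham night replicate 3 gave 169 and 35. The 937 mixed-tissue genes tested had a median log2 fold change of -1.06 with all 6 libraries. Without Sham night replicate 3 it was 0.19 over the 724 of them still tested, so the 2 medians cover different sets of genes. Few were called in either fit. At an adjusted p-value under 0.05, 21 were lower and 9 higher of 937 in the first fit. In the second, 18 were lower and 30 higher of all 732 mixed-tissue genes tested there. Without DCN night replicate 1 or 2 the 21 became 11 and 10, and the fits without 1 of the other 5 libraries gave between 4 and 6 higher ones.

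To give the level that remained after decentralization, each strong Control night gene was placed between its Control day level (0) and its Control night level (1) on the scale of log2(CPM + 0.5). The median over the 296 genes was 1.02, 1.09 and 0.92 in the 3 Sham night libraries and 0.25, 0.18 and 0.25 in the 3 DCN night libraries. In Sham day it was 0.03, 0.05 and 0.06. By this median the DCN night libraries lay above the day libraries of intact glands and far below the night libraries. From the means of DCN night, 79 genes were below 0, 74 were between 0 and 0.25, 91 between 0.25 and 0.5, 47 between 0.5 and 0.75, and 5 at 0.75 or above. Many of the genes at 0.25 or above carry identifiers between ENSRNOG00000034393 and ENSRNOG00000036498. Most genes of that range had like positions in DCN night and SCGX night. Whether they are related was not tested, and the medians without them were not computed. In Sham night 279 of the 296 were at 0.75 or above. In Sham day 80 genes were below 0 and 198 between 0 and 0.25, so that as many genes lay below the Control day level in this intact group as in DCN night, while fewer lay above 0.25 (18 against 143). In SCGX night 64 were below 0. Of the 79 genes below the Control day level, 19 were lower in each DCN night library than in each of the 6 Sham day and Control day libraries. The 79 were picked by their DCN night means, and the share of all genes separated in this way was not computed. The 19 are therefore a description only. At the other end, the 5 genes at 0.75 or above had log2 fold changes between -0.99 and 0.38 against Sham night, and 2 of them were lower at an adjusted p-value under 0.05.

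The remaining level differed among the strong night genes. Pineal-enriched ones (116) had median positions of 0.39, 0.31 and 0.36 in the 3 DCN night libraries, and the other 180 had 0.18, 0.13 and 0.17. In SCGX night the first group had 0.38, 0.37 and 0.34 and the second 0.20, 0.23 and 0.20. Genes with a night increase over 16-fold in Control (36) had 0.08, 0.02 and 0.18, below the 260 with a smaller increase (0.28, 0.23 and 0.27). The position divides by that same Control increase, so a given remaining difference gives a lower position where the increase is larger. This order is therefore partly built in. Genes raised in culture by both treatments (158) had 0.19, 0.12 and 0.23 and those raised by neither (79) 0.32, 0.26 and 0.30. The 76 strong day genes had a median position of 1.05, 0.91 and 0.75 in Sham night and of 0.42, 0.29 and 0.52 in DCN night. In these medians no DCN night library overlapped a Sham night library. These positions are descriptions of the libraries, and the differences between the gene groups were not tested. The pineal-enriched group also takes in genes through the night pool alone. How far the genes of the identifier range named above set these medians was not tested.

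**Figure D5:**
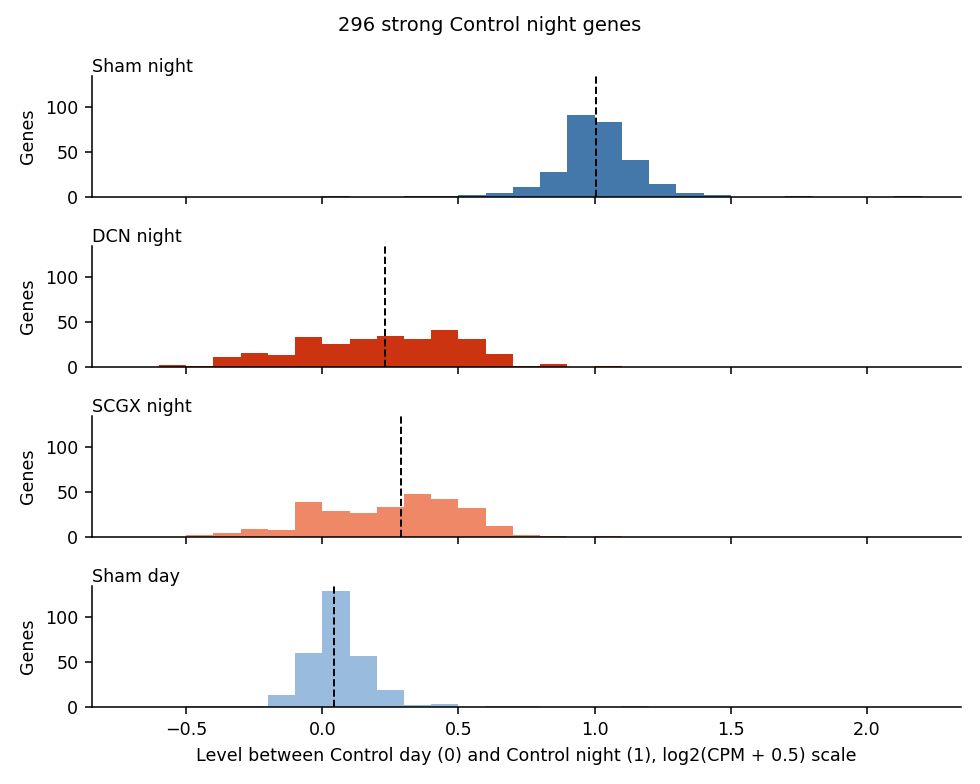
Number of strong Control night genes (296) by their level between Control day (0) and Control night (1), from group means of log2(CPM + 0.5), in Sham night, DCN night, SCGX night and Sham day. The dashed line is the median of each group. Sham night centres on 1 and Sham day near 0, and DCN night lies between them, with 79 genes below 0 (80 in Sham day) and 143 at 0.25 or above (18 in Sham day).

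Of the 136 genes called, 3 were neither night nor day genes in Control, and these 3, singled out after their values were seen, had differences of the same sign at day. One rose from 6.68, 6.34 and 6.72 CPM in Sham night to 21.3, 22.3 and 19.8 CPM in DCN night (log2 fold change 1.73, adjusted p = 0.000516, edgeR). It had between 6.43 and 8.52 CPM in Sham day and between 13.1 and 19.8 CPM in DCN day (log2 fold change 1.18, adjusted p = 0.0429). One fell from 10.5, 7.06 and 5.94 CPM to 0.135, 0.186 and 0.258 CPM, which rests on 2, 3 and 4 read-pairs, and Sham night was 40.3-fold higher (95% counting interval 21 to 88.8). At day it had between 3.15 and 4.64 CPM in Sham and 1.06, 0.186 and 0.125 CPM in DCN (log2 fold change -3.14, adjusted p = 0.0649). The last fell from 12.2, 12.9 and 14.4 CPM to 1.08, 1.06 and 1.22 CPM (log2 fold change -3.50, adjusted p = 0.000237), and at day it had 21.2, 4.84 and 6.49 CPM in Sham and 0.769, 0.559 and 0.56 CPM in DCN (log2 fold change -4.09, adjusted p = 0.0367). All 3 kept the call without Sham night replicate 3. The test of the difference between night and day gave adjusted p-values of 0.204, 0.145 and 0.659 for the 3 genes, and none was pineal-enriched. In SCGX night the first had 13.4, 13 and 17.6 CPM, the second between 0.123 and 0.285 and the last between 0.738 and 1.14.

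At day fewer genes were called by the same test. In DCN day against Sham day 0 of 16076 genes met the strict threshold (edgeR, with 3560 at an unadjusted p-value under 0.05), and 226 (1.41%) were lower and 181 (1.13%) higher by the looser one. DESeq2 gave 1372 genes at that looser threshold, and its count at the strict one was not taken at day. The paper, which used DESeq2, reports some genes that passed 0.001 with a change over 2-fold at both day and night. The 0 is therefore the result of the edgeR test. Of the 118 genes that fell at night, 15 (12.7%) were lower and 2 were higher at day, and these 15 are 6.64% of the genes lower at day. Of the 18 that rose at night, 5 were higher and 1 was lower at day. Without DCN day replicate 1, 16 of the 118 were lower and 5 of the 18 higher. The median day log2 fold change was -0.12 for the genes that fell at night and 0.21 for those that rose, against 0.02 over all genes. In the test of the difference between night and day, 256 of 16047 genes (1.6%) had an adjusted p-value under 0.001, of which 192 were more negative and 64 more positive at night. The number fell to between 113 and 164 in the fits without any 1 of the day libraries or of DCN night replicates 1 and 2. This difference was -5.68 on the log2 scale for ENSRNOG00000033502 (standard error 0.38, adjusted p = 9.85e-06, edgeR) and 2.86 for ENSRNOG00000039200 (standard error 0.22, adjusted p = 2.9e-05). It was 1.49 for ENSRNOG00000016472, with an adjusted p-value of 0.00614, and for ENSRNOG00000011598 the adjusted p-value was 0.00323.

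Against Control night, which shares the DCN libraries with the comparison above, 392 genes (2.52%) were lower and 103 (0.661%) higher in DCN night among 15586. The total became 175 without Control night replicate 2, 265 without Control night replicate 3, 288 without DCN night replicate 1 and 235 without DCN night replicate 2. Under scaling by library totals alone, 158 of 434 calls (36.4%) were higher, against 20.8% with TMM. Side by side, the log2 fold changes against Sham night and Control night were -8.49 and -8.12 for ENSRNOG00000033502. They were 2.89 and 2.33 for ENSRNOG00000039200 and 2.70 and 2.15 for ENSRNOG00000016472. ENSRNOG00000011598 was 1219-fold higher in Sham night and 781-fold higher in Control night (counting interval 358 to 2129) than in DCN night. Over the 295 tested strong Control night genes the median was -1.93 against Sham night, of which 293 were below 0.

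When DCN night was compared directly with SCGX night, which shares no Sham library, 0 of 15579 genes met the strict threshold with edgeR, 592 (3.8%) had an unadjusted p-value under 0.05, and DESeq2 called 3. The median log2 fold change of the strong Control night genes was -0.06 and that of the strong Control day genes -0.08, against 0.0045 over the genes of the Sham comparison. For the 3 genes that could be fitted, the differences were -0.30 (standard error 0.35) for ENSRNOG00000033502, 0.24 (0.12) for ENSRNOG00000039200 and 0.15 (0.13) for ENSRNOG00000016472. ENSRNOG00000011598 fell below the count minimum there, with 12 read-pairs in SCGX night and 6 in DCN night, a ratio of 2.12 (counting interval 0.737 to 6.89). These results do not show that both operations act alike, and with 3 libraries per group small differences were not detectable.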

How the data were processed

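RNA was measured in 36 rat libraries, of which 6 (3 DCN night, 3 Sham night) form the comparison. Per the paper's methods and the labels, the authors made stranded libraries of total RNA after removal of ribosomal RNA, mapped the reads to rn4 with RNA-STAR (2.3.1y in the submitters' processing notes) and used QoRTs, which follows the union rule of HTSeq, to count read-pairs on the genes of Ensembl. The deposited counts are raw read-pairs for 29516 genes per library, and every listed row names a gene. The authors also deposited RPKM values, the same counts scaled to gene length and to the total on genes, used here only for levels between genes.

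Counts were tested with edgeR 4.0.16 in R 4.3.3 (TMM, quasi-likelihood test, Benjamini-Hochberg), each comparison on its own libraries, where the mean normalized count reached 5. CPM were scaled by TMM over the 24 in vivo or the 9 cultured libraries. DESeq2 1.42.0, other scalings, filters and samples were alternatives. The tests were checked on simulated counts. Figures used Python 3.11.15 and matplotlib 3.10.9. The exact permutation test of 3 against 3 cannot go below 0.1, so it was not used. The gene groups, thresholds and members were chosen with earlier results of these data known. Genes printed are the 2 largest falls and 2 largest rises among strict calls whose libraries do not overlap. The rule also named lists by symbol, and these lists and cell type markers were not analysed here, since no table used pairs identifiers with symbols. Counting was by strand, and a read-pair that overlaps several genes was dropped, which can lower the counts of overlapping genes.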

Additional observations from a re-analysis of the deposited data

Results flagged for a closer look

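The difference between DCN and Sham was not the same at night and at day for 256 of 16047 genes, by the test of the interaction of surgery and time in the 12 DCN and Sham libraries (adjusted p-value under 0.001, edgeR). Of these, 192 were more negative at night. With DCN day replicate 1 and Sham night replicate 3 both left out, a choice made after the data were seen, 276 genes were found, 208 of them among the 256.

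For ENSRNOG00000033502 the difference between DCN and Sham on the log2 scale was -8.49 at night and -2.85 at day, and the interaction was -5.68. It was lower in each of the 3 DCN libraries than in each of the 3 Sham libraries at both times. For ENSRNOG00000039200 the difference was 2.89 at night and -0.01 at day, and the interaction was 2.86, with the libraries of both groups overlapping at day only.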

How the results depend on the processing

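None of the 4 genes printed changed direction under an alternative. The median of the mixed-tissue genes did, without Sham night replicate 3, where fewer of them were tested. For DCN night against Sham night at the strict threshold (136 genes), DESeq2 gave 779, no count filter 244, all 24 in vivo libraries in 1 model 800, and DESeq2 without Sham night replicate 3 (added after the data were seen) 799. Fits without 1 library gave 0 to 212. At an adjusted p-value under 0.05 (2721 genes), the model of all 24 libraries gave 4983 and fits without 1 library 1245 to 2711. The split of higher and lower calls also moved with the scaling and the tool, with 36 of 151 strict calls higher (23.8%) under library size only and 26.3% under DESeq2, against 13.2%. The interaction (256) gave 1007 with DESeq2, 401 with library size only, 876 with all 24 libraries and 113 to 360 without 1 library. DCN night against Control night (495) gave 924 with DESeq2, 759 with all 24 libraries and 175 to 414 without 1 library. DCN night against SCGX night gave 3 with DESeq2 and 0 under every other alternative run. DCN day against Sham day (407 at an adjusted p-value under 0.05) gave 1372 with DESeq2. The shares of gene groups called at an adjusted p-value under 0.05 in their leading direction were recomputed under each of the 15 alternatives, and those of night genes raised by NE and DBcAMP lay between 79% and 96.2%. Levels, positions and correlations were recomputed at most without Sham night replicate 3. The cause of these shifts was not tested. ENSRNOG00000011598 could not be fitted under the minimum of 10 read-pairs per library, since each DCN night library held 2.

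The replicate numbers did not pair the libraries. Deviations from the group means correlated at 0.148, -0.0576 and -0.0804 between DCN and Sham night libraries of the same number, over 15939 genes. With the number as a block, the strict count was 8 and the looser one 1618, the interaction gave 133 and DCN night against Control night 266, and both genes printed as rising passed an adjusted p-value of 0.05 but not 0.001 (0.0018 and 0.00504).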
